A study of Mus musculus with 2 samples.

Results

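The nuclear envelope genes described here are the 10 that encode the lamins, their main inner membrane partners and the bridge between nucleus and cytoskeleton: Lmna, Lmnb1, Lmnb2, Emd, Tmpo, Lbr, Sun1, Sun2, Syne1 and Syne2. They were taken by symbol from 34236 gene symbols, by a rule that uses no values but with earlier results of these data known. Each had 1 row per library. RNA was sequenced from mouse heart at embryonic day 12.5, on a mixed C57BL/6 x 129S6 background, in 2 untreated libraries called replicate 1 and replicate 2. The labels give no genotype beyond the strain, no number of embryos and no pooling, and they do not say whether the libraries came from separate embryos, so the spread between them may be technical. With 1 group there was no comparison between conditions. Levels are FPKM, fragments scaled to transcript length and to the mapped fragments of the library, and are given per library or as mean ± SD (n = 2).

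The nuclear lamina is a filament mesh under the inner nuclear membrane, built from A-type lamins (lamin A and lamin C, both from Lmna) and B-type lamins (Lmnb1 and Lmnb2). Emerin (Emd), the membrane forms of LAP2 (from Tmpo) and the lamin B receptor (Lbr) tie the lamina to the membrane and to chromatin. In the LINC complex, SUN proteins of the inner membrane hold the KASH tails of nesprins (Syne1, Syne2) in the outer membrane, and nesprins bind actin, motors and other cytoskeletal proteins. In people, changes in LMNA and EMD cause muscular dystrophy with conduction disease and cardiomyopathy.

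The ends of the coding sequences show features that set some of these products apart. Each line below holds the last 63 bases of a coding sequence, 5′ to 3′, from GENCODE M21 transcripts (GRCm38), with the stop codon last. Capitals mark the last 4 codons before the stop in Lmnb2 and the nesprins. In Lmnb2 these codons carry the farnesylation signal, whose cysteine codon opens the capitals, and in nesprins they close the KASH tail that sits in the SUN domain.
Lmnb2-201 (bases 1813 to 1875): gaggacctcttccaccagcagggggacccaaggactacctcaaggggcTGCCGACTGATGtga
Syne1-205 (bases 26756 to 26818): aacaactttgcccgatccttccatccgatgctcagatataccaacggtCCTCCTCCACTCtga
Syne2-201 (bases 20772 to 20834): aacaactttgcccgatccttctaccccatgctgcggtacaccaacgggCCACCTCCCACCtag
Tmpo-201, with 4 exons (bases 2285 to 2347): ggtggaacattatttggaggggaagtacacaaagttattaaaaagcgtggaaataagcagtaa
Tmpo-202, with 9 exons (bases 1566 to 1628): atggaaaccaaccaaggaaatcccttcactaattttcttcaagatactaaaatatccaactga

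Over these 63 bases the Syne1 and Syne2 ends were identical at 49 positions (77.8%), whereas the 2 Tmpo ends were identical at 23 (36.5%). Of 5 complete Tmpo coding sequences, 4 ended as Tmpo-202 does, and 1 ended as Tmpo-201 does. The FPKM of Tmpo therefore sums LAP2 isoforms with different ends, and that of Lmna sums lamin A and lamin C, its known splice products, so that isoforms cannot be told apart in these gene-level values.

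All 10 genes were detected, at 5.59 FPKM or more in each library. Detection meant 1 FPKM or more in both libraries, which 52.4% of 22240 protein-coding genes and 36.2% of all genes reached. The median over the 10 genes was 19.6 FPKM in replicate 1 and 19.5 FPKM in replicate 2, and that of their means was 19.5 FPKM, against 10.9 FPKM over the 11656 detected protein-coding genes. Of the 10, 8 lay above that median, and the nesprins Syne1 and Syne2 lay below it. The median gene of the group stood above 69.8% of detected protein-coding genes. Levels spanned 14.4-fold, with Lmnb1 highest and Syne1 lowest.

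**Figure D1:**
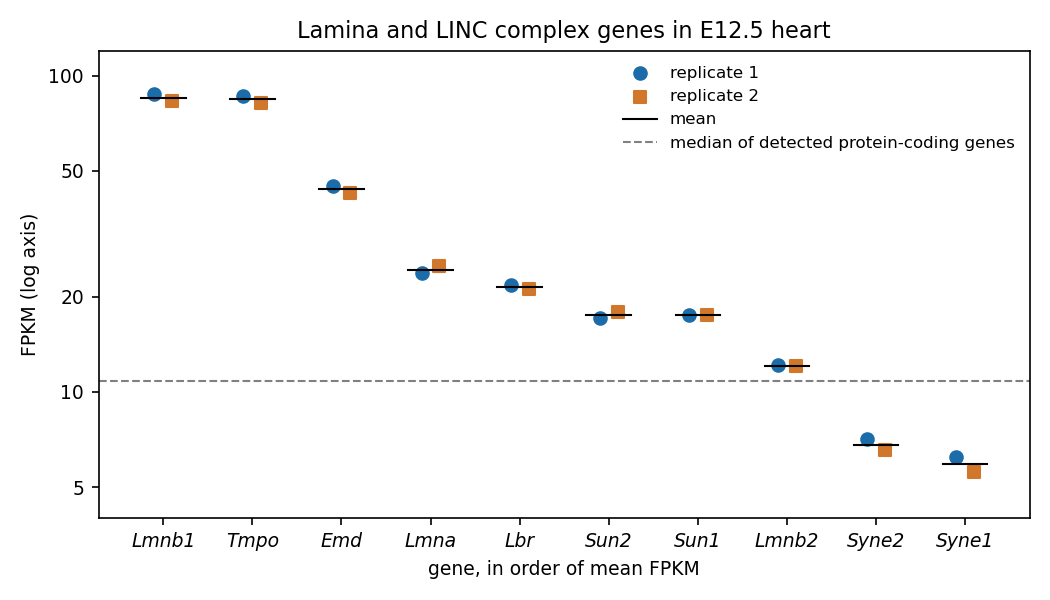
FPKM (log axis) of the 10 lamina and LINC complex genes in replicate 1 (circles) and replicate 2 (squares), with the mean as a bar and the median of detected protein-coding genes (10.9 FPKM) as a dashed line. Lmnb1 and Tmpo stand between 82.1 and 87.5 FPKM and the nesprins alone fall under the dashed line.

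Among the lamins, the B-type gene Lmnb1 was far higher than the others. Lmnb1, which encodes lamin B1, a permanently farnesylated component of the mesh, was at 87.5 FPKM in replicate 1 and 83.0 FPKM in replicate 2 (chromosome 18, 56867467 to 56913078, mm9). Lmna, the source of lamins A and C, was at 23.8 and 24.96 FPKM in the same libraries (chromosome 3, 88285070 to 88313878). Lmnb2, which encodes lamin B2, was at 12.2 and 12.05 FPKM (chromosome 10, 80363948 to 80380990). The values of the 3 genes did not overlap. In each library Lmnb1 was the highest and Lmnb2 the lowest of the 3.

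Of the summed lamin FPKM, 122 ± 2.49, Lmnb1 held 70.0 ± 1.23%, Lmna 20.02 ± 1.11% and Lmnb2 9.96 ± 0.119%. Lmna stood at 0.250 ± 0.0174 times the sum of the B-type genes, a log2 ratio of -1.96 ± 0.10. Values given as times are ratios of FPKM within a library, and log2 ratios are of FPKM + 1 within a library. As a measure of spread on that scale, 95% of the 12637 genes whose mean reached 1 FPKM had differences under 0.32 between the libraries. The A-type to B-type ratio lay far outside that range, and so did Lmnb1 over Lmnb2, at 7.03 ± 0.207 times (log2 2.72 ± 0.04), and Lmna over Lmnb2, at 2.01 ± 0.0878 times (0.95 ± 0.06). That range describes a single gene between libraries. It does not cover effects on FPKM that differ between genes, such as transcript length or isoforms, so a ratio beyond it is only shown to exceed the spread between libraries. In bulk tissue, more cells that express a gene and more RNA per cell cannot be told apart.

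The inner membrane genes were led by Tmpo. Tmpo, whose LAP2 products bind lamins and the chromatin protein BAF, had 86.2 FPKM in replicate 1 and 82.1 FPKM in replicate 2 (chromosome 10, 90610316 to 90634759). These values overlapped those of Lmnb1, so the order of Tmpo and Lmnb1 was not resolved. Emd, which encodes the LEM-domain protein emerin, had 45.0 and 42.4 FPKM (chromosome X, 71500026 to 71506887). Lbr, whose product binds B-type lamins and heterochromatin protein 1 and is also a sterol reductase, had 21.7 and 21.2 FPKM (chromosome 1, 183745447 to 183772532).

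Tmpo was 1.93 ± 0.0121 times Emd (log2 0.93 ± 0.01), and Lbr was 0.255 ± 0.00413 times Tmpo (-1.92 ± 0.02), both beyond the spread between libraries. Lbr and Lmna, which are known as alternative tethers of peripheral heterochromatin, lay close together. Lbr was 0.881 ± 0.0471 times Lmna, a log2 ratio of -0.12 in replicate 1 and -0.23 in replicate 2, within the 0.32 of all these genes. Among the 4018 genes with means of 10 to 30 FPKM, where both lie, 95% had differences under 0.20, which the ratio in replicate 2 exceeded, and the values of Lbr and Lmna did not overlap. Tm7sf2, the paralogue that shares the sterol reductase activity of Lbr, was at 5.60 ± 0.154 FPKM, and Lbr was 3.83 ± 0.176 times as high (log2 1.76 ± 0.06).

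The SUN genes were present at near-equal levels. Sun1 had 17.5 FPKM in each of the libraries (chromosome 5, 139676591 to 139725794), with an SD of 0.0213. Sun2 had 17.2 FPKM in replicate 1 and 17.9 FPKM in replicate 2 (chromosome 15, 79554500 to 79572966). Their products are the inner membrane part of the LINC complex and are known to overlap in function. The log2 ratio of Sun1 over Sun2 was 0.02 in replicate 1 and -0.03 in replicate 2, so the values overlapped and no order could be given.

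The nesprin genes were the lowest of the 10. Syne2 had 7.09 FPKM in replicate 1 and 6.53 FPKM in replicate 2 (chromosome 12, 76919121 to 77211913). Syne1, which gives both giant nesprin-1 and short muscle forms, had 6.24 and 5.59 FPKM (chromosome 10, 4795849 to 5326338). Syne1 was lower than Syne2 in each library without overlap, at 0.868 ± 0.0175 times, but the log2 ratio of -0.18 ± 0.02 lay within the spread of single genes. Sun1 was 2.97 ± 0.235 times Syne1 and 2.58 ± 0.152 times Syne2, and Sun2 was 2.98 ± 0.310 times Syne1 and 2.58 ± 0.217 times Syne2.

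Of the 14 ratios computed, 11 were larger in size than the 0.32 of all genes. Several ratios share a gene, and the share of other gene pairs past 0.32 was not computed. Nothing particular to these genes is therefore read from this count. The 3 within it were Sun1 over Sun2, Syne1 over Syne2 and Lbr over Lmna. Of the 9 pairs of neighbours in the order of levels, 2 overlapped (Lmnb1 with Tmpo, and Sun2 with Sun1) and 7 did not. How often other genes at such levels overlap was not computed, and the spread may be technical. The count thus describes these 2 libraries only. No p-value is attached, because 2 libraries of 1 group allow no two-sided sign-flip p below 0.5.

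**Figure D2:**
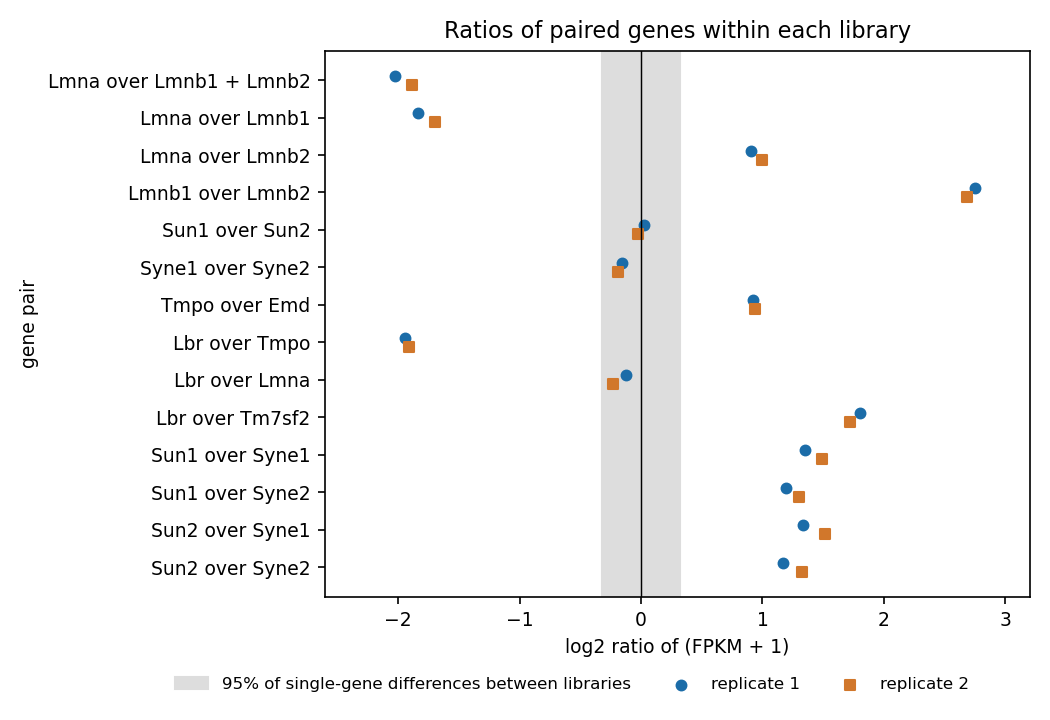
Log2 ratio of FPKM + 1 for 14 gene pairs in replicate 1 (circles) and replicate 2 (squares), with a grey band for 95% of single-gene differences between libraries (0.32 in either direction). Lmnb1 over Lmnb2 is the largest ratio at 2.72, and Sun1 over Sun2 falls on both sides of 0.

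Transcript length divides every FPKM, and the nesprin genes are far longer than the other members. The longest annotated coding transcript had 27908 bases for Syne1 and 21704 bases for Syne2, against 1595 bases for Emd and 4134 bases for Sun1. Complete Syne1 coding sequences ranged between 2850 and 26400 bases, so the level depends on which lengths the authors' software assigned to its fragments. Detected protein-coding genes were put in 10 equal groups by their longest annotated transcript. Within its own group, Syne1 stood above 43.2% and Syne2 above 49.0%, close to the middle. For Syne1 this place rests on the length of 27908 bases. A complete Syne1 transcript of 3443 bases is also annotated, and that length lies in a group with a higher median FPKM. The place of Syne1 by that length was not computed. Among all detected protein-coding genes Syne1 and Syne2 stood above 30.3% and 34.6%. Lmnb1 and Tmpo had similar places in both rankings. They stood above 94.8% of all detected protein-coding genes each, and above 96.0% and 97.1% of genes of like length.

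**Figure D3:**
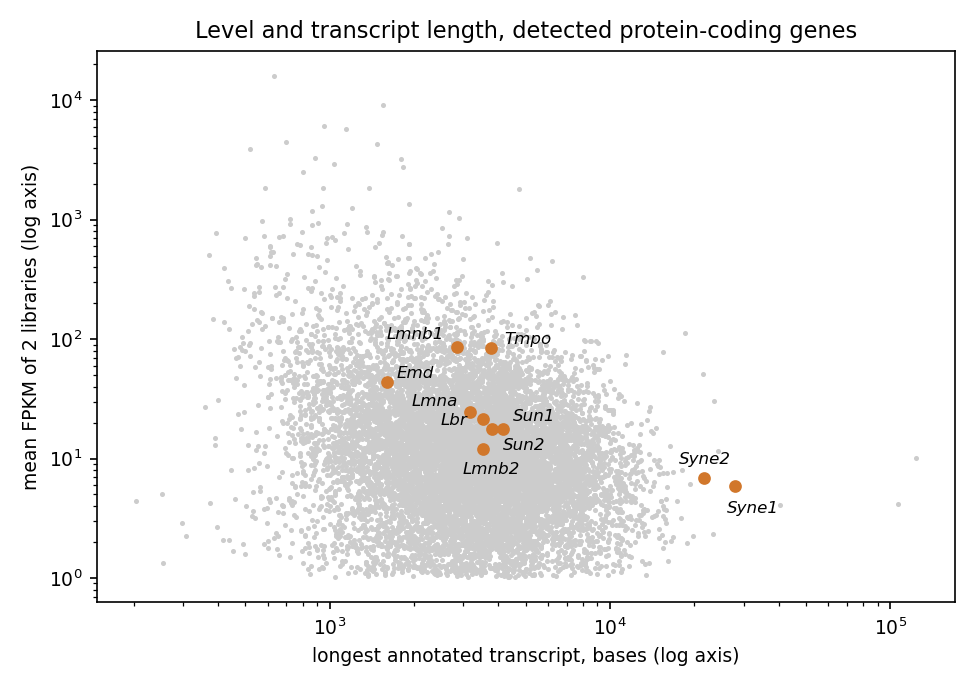
Mean FPKM against the longest annotated transcript (both log axes) for detected protein-coding genes (grey) and the 10 members (orange). Syne1 and Syne2 lie among the longest transcripts, at 5.91 and 6.81 FPKM.

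The libraries gave close values for every member. A 2-fold difference in either direction was looked for among genes whose mean reached 5 FPKM. None of the 10 members (0 of 10) and 0.347% of 8924 genes differed that much. At 1.5-fold the count was again 0 of 10, with 1.18% of all genes past that rule. The coefficient of variation ranged from 0.122% for Sun1 to 7.78% for Syne1. In replicate 2 relative to replicate 1, 7 members were lower and 3 (Lmna, Sun2 and Sun1) were higher, while 69.5% of detected protein-coding genes were lower.

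The nesprins showed the largest differences of the group, with log2 differences (replicate 2 minus replicate 1) of -0.14 for Syne1 and -0.10 for Syne2. Across detected protein-coding genes the same difference was larger in size for the longest transcripts. Its median lay between -0.03 and -0.02 in the 6 shorter of 10 groups by length, with no steady trend, and was -0.04, -0.05, -0.07 and -0.11 in the 4 longer groups, in order of length. In the last of these 89.7% of 1152 genes were lower in replicate 2. After the median of that last group was subtracted, -0.03 was left for Syne1 and 0.01 for Syne2. With the median of its own length group subtracted, each of the other members lower in replicate 2 also had a difference smaller in size. Those higher in replicate 2 had larger ones, at 0.09 for Lmna, 0.09 for Sun2 and 0.04 for Sun1. Every group median was negative, so the subtraction raised every value, and nothing about the members is read from these shifts. Whether RNA quality or library preparation differed was not tested.

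**Figure D4:**
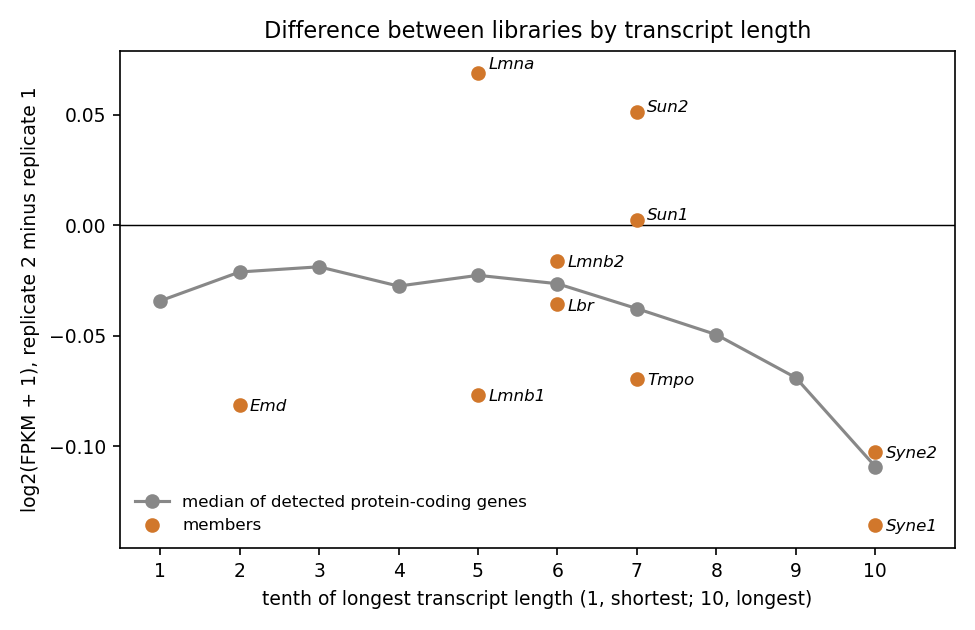
Difference in log2(FPKM + 1), replicate 2 minus replicate 1, in 10 equal groups by transcript length: medians of detected protein-coding genes (grey line) and the 10 members (orange). The grey line reaches -0.11 in the group with the longest transcripts, between Syne2 at -0.10 and Syne1 at -0.14.

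Other SUN and KASH genes were mostly under the detection limit. Beside the 4 of 4 members, 1 of 7 further genes was detected, Syne4 (listed under an older symbol), which encodes nesprin-4, a kinesin-binding nesprin known in epithelia and hair cells, at 7.58 and 8.09 FPKM. These values are above those of Syne1 in both libraries, but transcript length divides both and differs widely between them. By longest annotated transcript, Syne4 lies among genes of 1316 to 1816 bases, whose median was 14.4 FPKM. The mean of Syne4, 7.83 FPKM, was below that median. By the same measure Syne1, at a mean of 5.91 FPKM, lies in the group with the longest transcripts, whose median was 6.93 FPKM. The Syne1 transcript of 3443 bases would lie in another group, with a higher median. An order of Syne4 and Syne1 is therefore not read from these values. No other row overlaps the Syne4 row on the files' coordinates. The testis gene Spag4 was just under the limit at 0.955 and 0.972 FPKM. Lrmp (Jaw1, known from lymphocytes) was at 0.548 ± 0.0109, Ccdc155 (KASH5, which moves meiotic chromosomes) at 0.277 ± 0.0543, Syne3 (nesprin-3, a plectin-binding nesprin) at 0.233 ± 0.0116 and Sun3 at 0.142 ± 0.0571 FPKM. Sun5, a gene of sperm, was listed at 0 in both libraries.

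Genes that act on or beside the lamina were mostly detected. Of 69 listed genes outside the members, 63 were detected, beside 52.4% of all protein-coding genes. In 7 of the 8 lists every gene was detected. The median over the 69 genes was 13.4 FPKM, against 19.5 FPKM for the members and 10.9 FPKM over detected protein-coding genes. Other inner nuclear membrane proteins (10 of 10 detected, median 8.31 FPKM) were led by Tmem201, which encodes SAMP1, at 25.5 ± 1.17, the nurim gene Nrm at 18.03 ± 0.0372 and Tmem43, a gene of inherited arrhythmogenic cardiomyopathy in people, at 13.3 ± 0.658 FPKM. None of the 10 reached the level of Emd or Tmpo.

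The genes that act on lamin tails were all detected (6 of 6, median 14.0 FPKM). Fnta, the alpha subunit of farnesyltransferase, was at 30.9 ± 0.151 FPKM, the prelamin A binding gene Narf at 22.4 ± 0.264 FPKM and Zmpste24, the protease that removes the farnesylated end of prelamin A, at 15.1 ± 0.113 FPKM. Torsins and their cofactors (6 of 6, median 13.7 FPKM) were led by Tor1aip2, which encodes the torsin activator LULL1, at 46.0 ± 1.59 FPKM over 2 summed rows. Tor1a was at 15.5 ± 0.313 and Tor1b at 14.1 ± 0.358 FPKM.

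The chromatin partners of the lamina held the highest gene of all lists. Banf1, which encodes BAF, the DNA-binding partner of LEM-domain proteins such as emerin, was at 153 ± 0.421 FPKM, above all 10 members. Its longest annotated transcript, 1261 bases, lies in the shortest length group, whose median was 19.7 FPKM, against 10.7 FPKM for the group of Lmnb1. Banf1 was followed by the heterochromatin protein 1 genes Cbx5 at 67.7 ± 3.21 and Cbx1 at 42.2 ± 1.21 FPKM (8 of 8 detected, median 24.98 FPKM). Genes of envelope opening and resealing (9 of 9, median 33.7 FPKM) were led by Cdk1, the mitotic kinase that phosphorylates lamins, at 99.3 ± 2.44, the ESCRT gene Chmp4b at 56.1 ± 1.84 and the cyclin Ccnb1 at 41.6 ± 2.62 FPKM.

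On the cytoplasmic side, cytoskeletal partners (8 of 8, median 16.2 FPKM) were led by the actin cross-linker Flna at 96.5 ± 2.79, the kinesin light chain Klc1 at 43.4 ± 1.07 and the kinesin heavy chain Kif5b at 39.3 ± 2.70 FPKM. Nuclear pore subunits, some of which interact with lamins or SUN1 (15 of 15, median 14.7 FPKM), were led by Nup62 at 39.2 ± 0.671, Nup88 at 35.2 ± 0.541 and the basket gene Tpr at 22.2 ± 1.31 FPKM. Copies of these listed genes elsewhere in the genome were not sought, so levels of genes with processed pseudogenes may be uncertain.

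**Figure D5:**
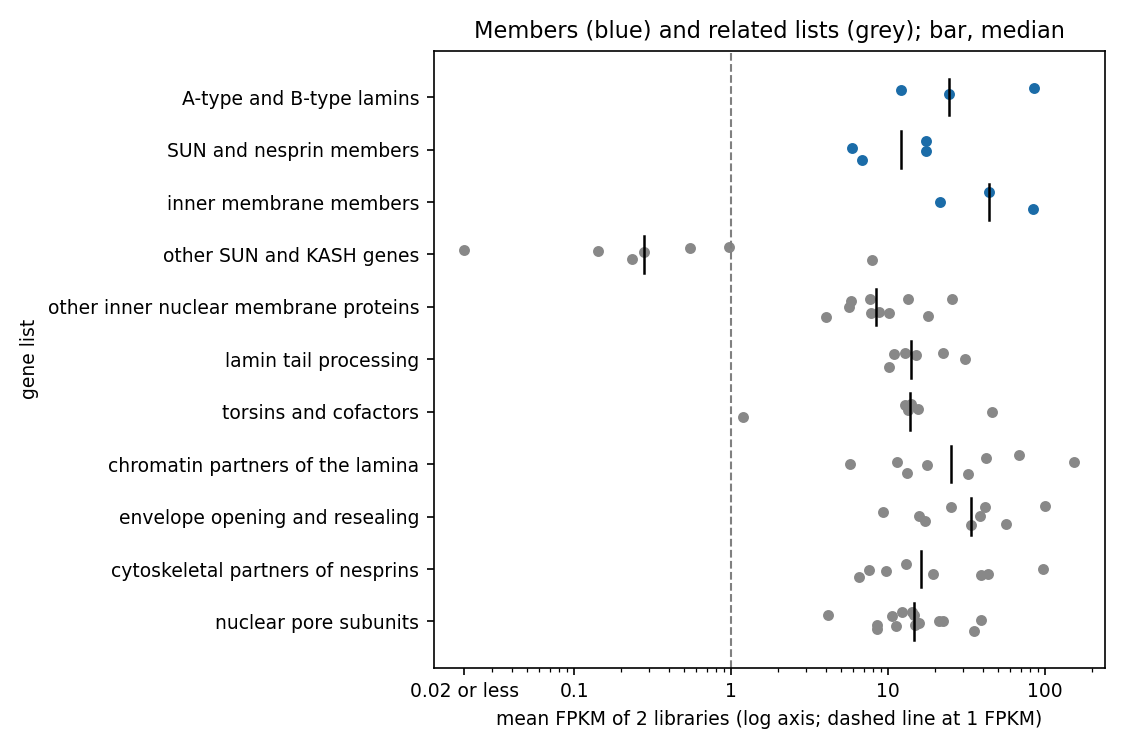
Mean FPKM (log axis) of the members (blue, first 3 rows) and of genes in 8 related lists (grey), with the median of each list as a bar and 1 FPKM as a dashed line. Apart from Syne4, the other SUN and KASH genes fall below 1 FPKM, and Sun5, at 0, is drawn at the left edge.

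Markers for the heart were present, with all 6 cardiomyocyte markers (summed FPKM 6450 in replicate 1 and 6133 in replicate 2), 5 endothelial, 4 epicardial, 4 mesenchymal and 5 erythroid markers detected. Of the macrophage markers found, 4 of 5 were detected (11.9 and 10.4 summed FPKM), and of neuronal markers 2 of 4 (5.98 and 6.54). Of liver markers 0 of 4 were detected (1.87 and 3.23), and of skeletal muscle markers 0 of 4 (0.625 and 0.557). The liver markers Afp and Alb reached 1 FPKM in replicate 2 only, at 1.49 and 1.12 FPKM. The members are expressed in many cell types, and the share of each cell type in their levels was not tested.

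Overlapping genes and near-identical copies were looked for. On the files' coordinates 4 members (Lmnb1, Lmna, Lmnb2 and Sun1) shared no span with another gene row. The other 6 overlapped 8 rows, of which 5 were listed at 0 in both libraries. The highest of these rows was Gm14686, a pseudogene within the Emd row, at 1.75 and 1.11 FPKM. Emd-202, which is 1 of 4 coding transcripts of Emd, matched Gm14686 over 343 bases and the translation factor gene Eif1 over 321 bases at 98.1% identity. Eif1 was at 182 FPKM in replicate 1 and 172 FPKM in replicate 2, so the level of Emd is uncertain to the extent that reads were shared. Lbr and Sun2 matched 1 other gene each, neither of which was above 0.0108 FPKM. Tmpo-202, Tmpo-203, Tmpo-204 and Tmpo-205 matched Gm26765, over up to 251 bases at 99.6% identity. No row was found for Gm26765, so its level is unknown and its effect on the level of Tmpo was not tested. For 6 members no match to another gene was found.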

How the data were processed

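The authors deposited 1 table of FPKM per library, with 37620 gene rows each and positions for every gene. The submitters' processing notes name the tools GSNAP, Cufflinks and Cuffnorm, and mm9 and hg19 as builds. Versions, gene annotation, strandedness and the treatment of multiply matching reads are not given in the sources. Per the labels' protocols, libraries came from Trizol-extracted total RNA and the TruSeq RNA v2 kit. The positions fit mm9, since chromosome 1 has a gene end at 197054592, whereas genes there stop at 195323493 in the GRCm38 annotation. FPKM summed to 388230 (replicate 1) and 382561 (replicate 2), and the absolute depth is unknown. Among 2828 genes under 0.1 FPKM in both libraries, 478 were about 1.33 times as high in replicate 2 (tolerance 0.05 on the log2 scale), the commonest ratio. If this ratio reflects the weight of a single fragment, replicate 1 was deeper by that factor, which was not tested.

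Rows with the same symbol were summed. A pseudocount of 1 FPKM was added before log2, which understates differences of low genes. Transcript lengths (11516 of 11656 detected protein-coding genes, 98.8%), coding ends and copies came from GENCODE M21, with Syne1 matched by symbol. Copies were sought with BLAST 2.17.0 at 98% identity over 75 bases or more. All 10 members and, of each related list, the 3 highest genes and every gene under 1 FPKM are named. Of 69 related genes, 4 were found through their gene ID. The members and lists were chosen with earlier results of these data known. No protein sequences were used, so planned comparisons of proteins were replaced by coding ends, chosen after the data were seen. The coding ends of Lmna are not reported here. The fold rule was tested on simulated data. Alternatives were another pseudocount, detection limit, filter, fold and row per symbol, rescaling, other background genes and each library alone. Python 3.11.15, NumPy 2.4.6, pandas 2.3.3 and Matplotlib 3.10.9 were used.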

Additional observations from a re-analysis of the deposited data

How the results depend on the processing

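The 10 members stayed detected, and 0 of them passed the fold rule, under every alternative run. The alternatives for the fold rule include subtraction of the median difference of genes of like transcript length, which was added after the data were examined. Of the 14 pair ratios, 11 lay beyond the spread between libraries under each alternative, and none of those 11 changed direction. With a pseudocount of 0.1, log2 ratios moved by up to 0.15, for Lbr over Tm7sf2, which was 1.92 against 1.76. Lmnb1 over Lmnb2 was then 2.80 and Syne1 over Syne2 was -0.20. The median percentile of the members, 69.8, was 71.0 among all gene types and 84.2 among protein-coding genes with no filter on low values. With 1 library left out, the median member level was 19.5 without replicate 1 and 19.6 FPKM without replicate 2. Related genes detected numbered 65 at a limit of 0.5 FPKM and 60 at 5 FPKM, against 63. No paired analysis was possible because both libraries belong to 1 group. The depth of the libraries is unknown, and intervals for counting error were not computed.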

Other observations

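Of the 15 nuclear pore subunits, 14 were lower in replicate 2 than in replicate 1 and 1, Nup88, was higher, with a median log2 difference of -0.12. Over all detected protein-coding genes, 69.5% were lower in replicate 2, with a median of -0.04, and in the 3 groups with the longest transcripts 76.2%, 81.3% and 89.7% were lower, so nothing particular to the pore is read from this count. Ranbp2, at 10.2 FPKM in replicate 2 and 12.2 FPKM in replicate 1, differed by -0.24. Plec, which encodes the cytoskeletal linker plectin, was at 6.35 FPKM in replicate 2 and 8.72 FPKM in replicate 1, a log2 difference of -0.40. Ranbp2 and Plec are named after their values were seen, and the longest transcripts of both, 9608 and 15455 bases, lie in the longest of the 10 groups by length.

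The Syne1 row lies on the plus strand in the files, followed by Esr1 at higher coordinates (5340927 to 5734948 of chromosome 10, mm9). In the GRCm38 annotation Syne1 lies on the minus strand (5020917 to 5551482), and Esr1 lies below it (4611593 to 5005614). The order and strands of Myct1, Syne1 and Esr1 are thus opposite in the 2 builds, and the gene ID of Syne1 in the files is not that of the GRCm38 annotation.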
